A study of Mus musculus with 12 samples.

Results

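The AMPA and kainate receptor subunits were taken as every probe set in the value table whose only gene symbol is Gria1 to Gria4 or Grik1 to Grik5. Of these 9 genes, 7 were found among the 11358 genes of the table, with 16 of the 22339 probe sets that carry 1 symbol: 10 probe sets for the AMPA receptor genes Gria1, Gria2, Gria3 and Gria4, and 6 for the kainate receptor genes Grik1, Grik2 and Grik3. Grik4 and Grik5 were not analysed here. The values are log2 intensities from 12 Affymetrix Mouse430_2 arrays, in 4 groups of 3 arrays. The arrays were hybridised with labelled cDNA amplified from RNA of fluorescent cells sorted from the embryonic mouse cortex. MGE cells, which arise in the medial ganglionic eminence, came from Nkx2-1-Cre;R26R-YFP embryos at E14.5 and E18.5, and carry YFP wherever Nkx2-1-Cre has acted. CGE cells, which arise in the caudal and lateral eminences, came from Nkx2-1-Cre;Dlx1-lox-Venus-lox embryos at E16.5 and E18.5, in which Cre removes the Venus reporter from the Nkx2-1 lineage and Dlx1-expressing cells of other origin keep it. All 4 groups therefore carry Nkx2-1-Cre, and the reporter differs between the lineages. The MGE reporter marks descent from Nkx2-1 cells and not a cell type, so it can label cells other than interneurons. Embryos were pooled, and how many embryos or litters each array stands for was not stated. P-values therefore measure the spread between arrays, which the labels name as biological replicas.

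AMPA receptors are ion channels built from 4 subunits, GluA1 to GluA4, and carry most fast excitatory transmission in the brain. GluA2, the product of Gria2, makes the channel nearly impermeable to calcium once its message has been edited, and receptors that lack it let calcium through. Kainate receptors are related channels built from GluK1 to GluK5, of which GluK1 to GluK3 can form channels on their own and GluK4 and GluK5 need one of those as a partner. Cortical interneurons receive glutamate input through both kinds while they migrate and mature, and oligodendrocyte precursors also carry AMPA receptors.

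Promoter windows of 4 of the 7 genes are in the RefSeq table used here (GRCm38.p6, 250 bases before to 50 after the gene start), and none was matched for Gria1, Gria3 or Grik1. They are shown to set the upstream sequence of genes that were higher in MGE cells on both days (Gria4 and Grik2) beside that of genes with no lineage difference called (Gria2 and Grik3). Capitals mark CG dinucleotides, and each window reads 5′ to 3′ on the strand of its gene. The windows lie at chr9:4796185-4796484 on the minus strand for Gria4, chr10:49788705-49789004 on the minus strand for Grik2, chr3:80802786-80803085 on the minus strand for Gria2 and chr4:125490446-125490745 on the plus strand for Grik3.
Gria4: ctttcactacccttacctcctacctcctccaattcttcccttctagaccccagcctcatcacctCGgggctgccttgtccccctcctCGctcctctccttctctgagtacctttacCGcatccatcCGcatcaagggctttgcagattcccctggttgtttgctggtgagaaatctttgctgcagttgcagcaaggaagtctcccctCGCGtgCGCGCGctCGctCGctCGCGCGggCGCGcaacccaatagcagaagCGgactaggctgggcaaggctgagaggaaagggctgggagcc
Grik2: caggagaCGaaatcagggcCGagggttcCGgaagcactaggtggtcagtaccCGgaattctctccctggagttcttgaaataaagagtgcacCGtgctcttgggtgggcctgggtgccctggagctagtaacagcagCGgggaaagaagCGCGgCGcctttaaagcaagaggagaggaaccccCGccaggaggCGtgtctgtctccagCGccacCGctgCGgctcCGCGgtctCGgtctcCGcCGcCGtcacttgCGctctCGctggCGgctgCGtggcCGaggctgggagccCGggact
Gria2: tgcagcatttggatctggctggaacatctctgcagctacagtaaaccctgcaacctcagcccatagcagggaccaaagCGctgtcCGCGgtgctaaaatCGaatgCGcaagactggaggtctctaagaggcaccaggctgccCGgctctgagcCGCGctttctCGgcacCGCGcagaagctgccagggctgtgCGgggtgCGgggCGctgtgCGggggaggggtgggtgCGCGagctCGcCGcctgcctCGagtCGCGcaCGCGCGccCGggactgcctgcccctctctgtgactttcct
Grik3: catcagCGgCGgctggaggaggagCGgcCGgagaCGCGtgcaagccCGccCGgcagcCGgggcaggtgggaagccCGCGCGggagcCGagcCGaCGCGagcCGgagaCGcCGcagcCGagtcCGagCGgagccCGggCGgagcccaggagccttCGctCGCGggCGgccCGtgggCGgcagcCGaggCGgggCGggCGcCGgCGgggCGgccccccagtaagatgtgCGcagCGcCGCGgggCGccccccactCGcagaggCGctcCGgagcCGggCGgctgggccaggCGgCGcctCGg
The Gria4 window holds 17 CG dinucleotides, the Grik2 and Gria2 windows hold 26 each and the Grik3 window holds 50, against a median of 7 over 32851 windows of the same length. On either strand, the homeodomain core TAATTA (in 5.29% of all windows) and the E-box CAGCTG (in 16.3%) were in none of the 4. The GC box GGGCGG (in 35.7%) was in the Grik3 window only. These 3 motifs do not overlap one another in sequence, and a match or its absence describes these letters alone.

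Before the members' values, the arrays were set against the cell types they stand for. The MGE interneuron list was higher in MGE cells for 6 of 6 tested genes in the early and 5 of 6 in the late lineage comparison, and the CGE interneuron list was lower for 6 of 6 and 5 of 6. Of all probe sets, 4.17% were higher and 5.48% lower early, and 13% and 9.66% late. Sp8 and Adarb2 passed the filter on low values through CGE arrays alone, which partly fixed the CGE counts. Cxcl14 was not lower late, with means of 8.38 in MGE and 7.64 in CGE cells at E18.5. In MGE cells 2 of the 6 CGE genes rose and 1 fell between days, where 10.3% of all rose and 9.18% fell. Replicate arrays of a group correlated at 0.972 to 0.995, and MGE E14.5 replicates 1 and 2 were closer (SD of their log2 differences 0.231) than any other pair (0.376 to 0.518). The MGE arrays at E18.5 stood apart in their markers of oligodendrocyte precursors. All 4 defining markers, Pdgfra, Cspg4, Sox10 and Olig2, lay between 9.77 and 12.70 on those 3 arrays, and the sum of the 16 listed genes present was 14.57 to 15.20 (log2 of the summed linear levels) against 11.96 to 12.17 in MGE cells at E14.5, 11.74 to 12.11 in CGE cells at E16.5 and 11.89 to 12.37 in CGE cells at E18.5. Vcan alone read 11.06 to 11.63 in MGE cells at E14.5 and 11.08 to 11.31 in CGE cells at E16.5. The sums of these groups therefore rest largely on that gene and can hide differences of dimmer markers. The summed level of 7 GABAergic genes was 14.16 to 14.44 on the MGE arrays at E18.5, below the 14.72 to 14.89, 14.92 to 15.01 and 14.81 to 14.95 of the same other groups. In sorted pools, fewer cells of a type and less RNA per cell cannot be told apart.

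Of the 7 receptor genes, 5 were higher in MGE cells than in CGE cells when MGE cells at E14.5 were set against CGE cells at E16.5, a comparison in which lineage and embryonic day differ together. These were Gria1, Gria3, Gria4, Grik1 and Grik2, by 1.25 to 3.20 on the log2 scale at the lead probe set, which is the brightest of a gene over the 12 arrays. Gria2 and Grik3 were not called. Counted by probe set, 11 of 16 were higher and 0 lower at an adjusted p under 0.05 (limma, Benjamini-Hochberg over 16008 probe sets), where 4.17% of all tested probe sets were called higher and 5.48% lower (9.65% in all). At E18.5, where both lineages were taken on 1 day, 10 of 16 were higher and 0 lower, against 13% and 9.66% of all (22.6% together). At an unadjusted p under 0.05, 12 were higher and 0 lower in each of these comparisons. The median difference of the 16 was 1.38 in the early and 1.35 in the late comparison, beside -0.01 and -0.02 over all probe sets. The MGE and CGE arrays did not overlap for 11 members in the early and 12 in the late comparison, against 31.7% and 36.8% of all probe sets. All 16 passed the filter on low values. The second Gria3 probe set passed through the MGE arrays at E18.5 alone, both Grik1 probe sets through the MGE arrays at E14.5 alone, and the first Gria3 and the dimmest Gria4 probe set through MGE arrays alone, so for these the filter required a high value on the side that was higher.

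**Figure D1:**
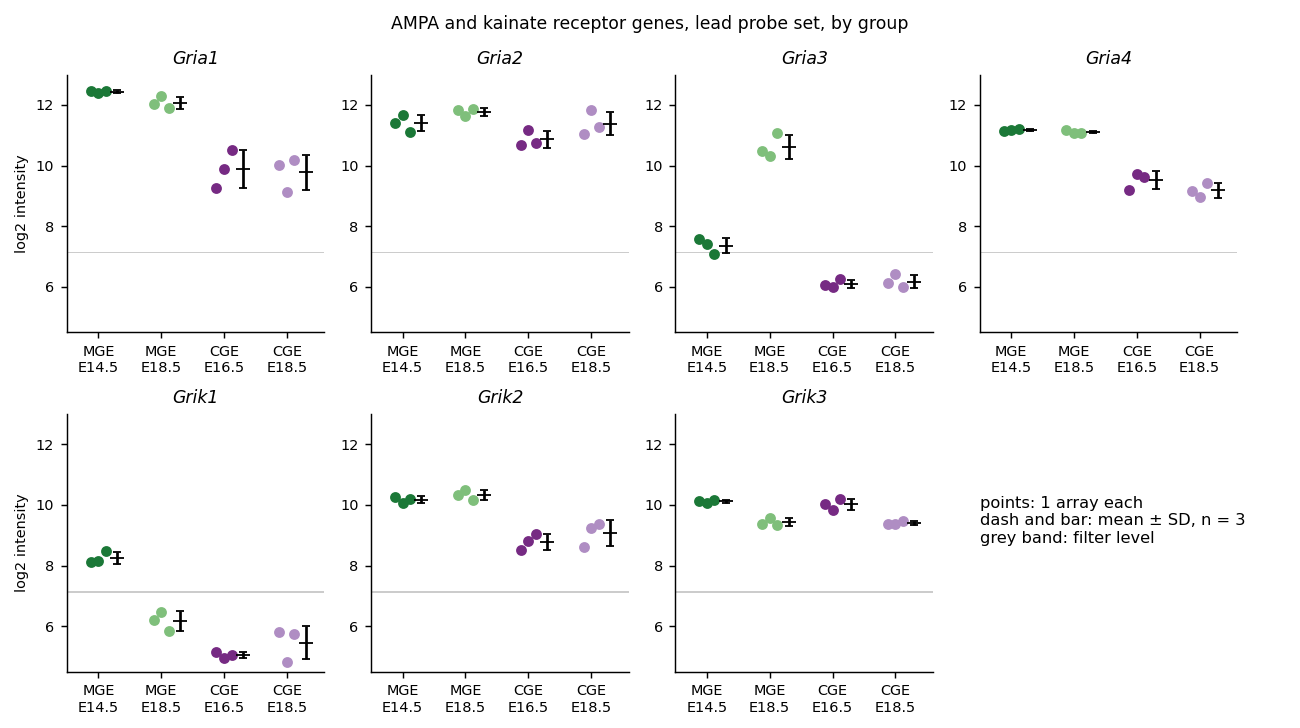
Log2 intensity (y axis) of the lead probe set of each of the 7 receptor genes in the 4 groups (x axis), with 1 point per array and the mean ± SD of 3 arrays beside it; the grey band is the level of the filter, 7.10 to 7.17. Gria1, Gria4 and Grik2 lie higher in both MGE groups than in both CGE groups, Gria3 stands highest in MGE cells at E18.5, Grik1 in MGE cells at E14.5, and Grik3 falls with age in both lineages.

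Gria1 encodes GluA1, a subunit known for its part in activity-dependent receptor insertion. Its lead probe set 1448972_at read 12.47, 12.39 and 12.44 in MGE cells at E14.5 and 12.04, 12.28 and 11.89 in MGE cells at E18.5. In CGE cells it read 9.24, 9.89 and 10.53 at E16.5 and 10.02, 9.12 and 10.19 at E18.5. Every MGE array was higher than every CGE array, and the CGE arrays were spread more widely than the MGE arrays (SD 0.64 and 0.57 against 0.04 and 0.19). The difference was 2.55 ± 0.31 (SE; 5.86-fold, adjusted p = 0.000232) in the early and 2.29 ± 0.31 (4.89-fold, adjusted p = 0.000249) in the late comparison. The second probe set, 1435239_at, gave 3.11 ± 0.32 and 2.73 ± 0.32, and followed the first at r = 0.986 over the 12 arrays. Between days Gria1 was not called, at -0.37 (95% interval -1.05 to 0.32) in MGE and -0.11 (-0.79 to 0.58) in CGE cells. Ordered by level, MGE E14.5 stood above MGE E18.5, CGE E16.5 and CGE E18.5, and the only step between neighbours beyond the spread was that from MGE E18.5 to CGE E16.5 (2.18 ± 0.31). At the lead probe set the lowest and highest CGE array of each day were the same as for Lhx6, the transcription factor gene of MGE interneurons. Lhx6 read 10.24, 10.74 and 11.33 in CGE cells at E16.5 and 10.64, 10.45 and 10.87 at E18.5. At 1435239_at they were the same at E16.5, but at E18.5 replicate 1 (10.08) was highest and not replicate 3 (9.59). The summed level of 6 MGE interneuron genes on the CGE arrays was 12.89 to 13.55 at E16.5 and 12.68 to 13.08 at E18.5. It was 14.32 to 14.92 on the MGE arrays, and its part in the Gria1 level of CGE arrays was not tested.

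Gria4 encodes GluA4, which parvalbumin interneurons carry in the adult cortex. Probe set 1435722_at read 11.15, 11.17 and 11.19 in MGE cells at E14.5 and 11.16, 11.08 and 11.09 at E18.5. In CGE cells it read 9.20, 9.74 and 9.63 at E16.5 and 9.17, 8.95 and 9.44 at E18.5. The lineages did not overlap, and the MGE arrays of both days lay within a narrow range. The difference was 1.65 ± 0.16 (3.14-fold, adjusted p = 3.13e-05) early and 1.92 ± 0.16 (3.80-fold, adjusted p = 3.55e-06) late. The other probe sets, 1421351_at and 1440891_at, were also called in both comparisons, at 1.71 ± 0.28 and 2.15 ± 0.18 early and at 1.98 ± 0.28 and 1.64 ± 0.18 late. Neither lineage changed between days by a called amount, and the lead probe set moved by -0.06 (-0.41 to 0.28) in MGE and by -0.34 (-0.68 to 0.00) in CGE cells. The order of levels was MGE E14.5, MGE E18.5, CGE E16.5 and CGE E18.5, with a called step only between the lineages (1.59 ± 0.16).

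Gria3 was the member with the largest late difference and the largest change in the lineage difference. It encodes GluA3. Probe set 1420563_at read 10.49, 10.32 and 11.06 in MGE cells at E18.5 and 7.57, 7.40 and 7.09 in MGE cells at E14.5. In CGE cells it read 6.06, 5.99 and 6.26 at E16.5 and 6.11, 6.43 and 5.99 at E18.5. The MGE arrays at E18.5 stood apart from all others, and the CGE arrays of both days lay below the filter level, so that folds against them can be understated. MGE cells exceeded CGE cells by 4.45 ± 0.20 (21.8-fold, adjusted p = 3.45e-08) at E18.5 and by 1.25 ± 0.20 (2.38-fold, adjusted p = 0.00174) in the early comparison. Within the MGE lineage the rise from E14.5 to E18.5 was 3.27 ± 0.20 (9.64-fold, adjusted p = 4.61e-07), whereas CGE cells gave 0.07 (-0.37 to 0.51). The change of the lineage difference, the late minus the early difference, was 3.20 ± 0.28 (adjusted p = 2.37e-05). The second probe set, 1434728_at, gave 4.34 ± 0.22 late, 3.71 ± 0.22 for MGE maturation and 3.48 ± 0.30 for the change (adjusted p = 1.99e-05). Its early difference of 0.86 ± 0.22 was called at adjusted p = 0.0256. It compared arrays that all lay below the filter level, 5.22 to 5.81 in MGE cells at E14.5 and 4.41 to 4.96 in CGE cells at E16.5. The call was lost in 6 of 20 alternative settings. Among these were the fits without MGE E14.5 replicate 1 (0.71), MGE E14.5 replicate 2 (0.87), CGE E16.5 replicate 2 (0.83) or CGE E16.5 replicate 3 (0.74). By level, MGE E18.5 was followed by MGE E14.5 (a called step) and by CGE E18.5 (a called step of 1.18 ± 0.20 below MGE E14.5), and the last step to CGE E16.5 was not called.

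Markers of oligodendrocyte precursors moved with Gria3. Of 14 tested genes of that list, 13 were higher and 0 lower in MGE cells at E18.5 than in CGE cells at E18.5, with a median difference of 4.15, and 13 of 14 rose in MGE cells between E14.5 and E18.5, with a median of 3.90. The change of the lineage difference was called for 13 of 14, with a median of 3.31. Of all probe sets, 13% were higher and 9.66% lower late, and 10.3% rose and 9.18% fell in MGE cells. For the change, 6.65% of all were higher and 2.6% lower. In the early comparison 6 of the 14 were higher and 1 lower, with a median of 0.21, against 4.17% and 5.48% of all. The 4 defining markers were among the 6, with early differences of 2.51 for Pdgfra, 1.58 for Sox10, 1.34 for Cspg4 and 1.10 for Olig2. Sox10 and Olig2 lay below the filter level on every array of that comparison. Sox10, Olig2, Nkx2-2, Gpr17, Bcan, Tnr, S100b and C1ql1 passed the filter on low values through the MGE arrays at E18.5 alone. Pdgfra, Cspg4 and Olig1 passed it through MGE arrays alone. For these the filter required a high value on the side that was higher, which partly fixed the counts and medians of this list. Pdgfra, the receptor gene that defines these precursors, read 12.52, 12.25 and 12.70 in MGE cells at E18.5 and 8.03, 8.43 and 7.42 at E14.5, and its late difference was 6.48 ± 0.45. Sox10, a transcription factor gene of the oligodendrocyte lineage, gave 6.13 ± 0.23, Cspg4, which encodes the NG2 proteoglycan, gave 5.47 ± 0.26, and Olig2 gave 4.39 ± 0.21. The 3 genes whose pattern over the 12 arrays was most like that of Gria3, among 8780 compared by Pearson r, were Nkx2-2 (0.997), Gatm (0.991) and Sox10 (0.991), of which Nkx2-2 and Sox10 are on the precursor list. On the radial glia and astrocyte list, 6 of 9 tested genes were higher and 1 lower in the late comparison, and 7 of 9 rose in MGE cells. Of the 7 GABAergic genes, 5 were lower in the late comparison and 6 fell in MGE cells between days, with median differences of -0.75 and -0.63. The part of these cell types in the Gria3 result was not tested.

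**Figure D2:**
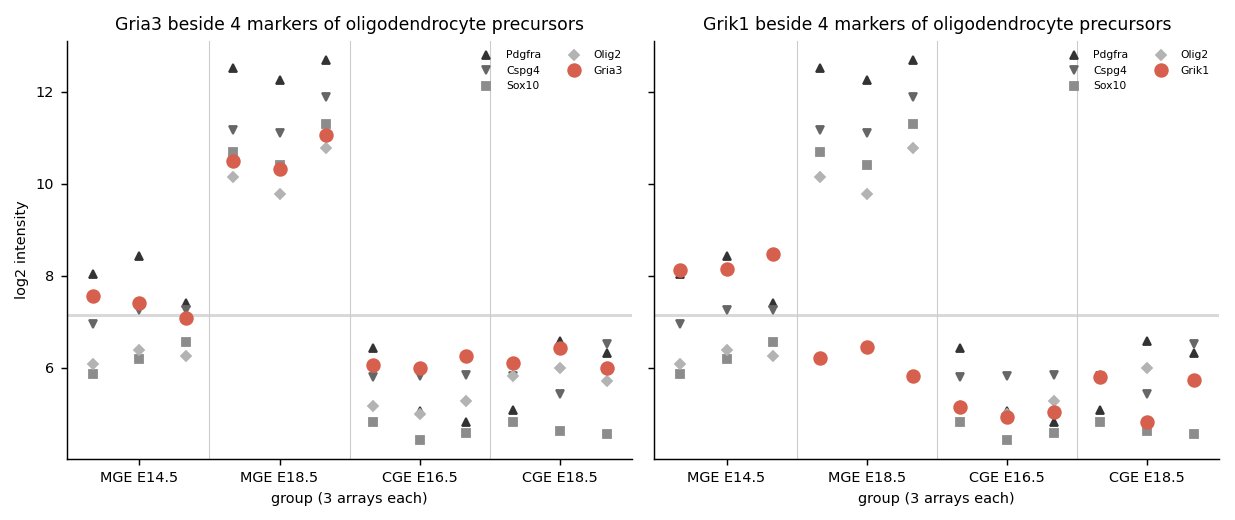
Log2 intensity (y axis) of the lead probe sets of Gria3 (left) and Grik1 (right), in red, on each of the 12 arrays ordered by group (x axis), with 4 defining markers of oligodendrocyte precursors in grey and the filter level as a grey line; levels of different probe sets are not comparable, only their courses across arrays. Gria3 and the 4 markers are all highest on the 3 MGE arrays at E18.5, whereas Grik1 is highest on the 3 MGE arrays at E14.5.

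Gria2, which encodes the subunit that limits calcium entry, had no called difference between lineages. Probe set 1421970_a_at read 11.41, 11.66 and 11.11 in MGE cells at E14.5 and 11.83, 11.63 and 11.87 at E18.5. In CGE cells it read 10.67, 11.18 and 10.76 at E16.5 and 11.06, 11.82 and 11.28 at E18.5. At this probe set the lineages overlapped on both occasions. The difference was 0.53 (95% interval 0.07 to 0.99, adjusted p = 0.158) early and 0.39 (-0.07 to 0.85, adjusted p = 0.208) late, so a difference of up to about 1 log2 unit is within the intervals. The order of levels was MGE E18.5, MGE E14.5, CGE E18.5 and CGE E16.5, with no called step between neighbours, and only the ends differed by a called amount (0.91 ± 0.21, adjusted p = 0.00886). Probe set 1434146_at differed between lineages by 0.29 (-0.05 to 0.63) early and 0.40 (0.06 to 0.74, adjusted p = 0.0857) late. Neither was called, although the late groups did not overlap. It rose in MGE cells by 0.51 ± 0.16 (adjusted p = 0.0405). That call was lost without MGE E14.5 replicate 1 (0.56) or replicate 3 (0.36) and without MGE E18.5 replicate 1 (0.44) or replicate 3 (0.49). The third probe set, 1453098_at, followed the first at r = 0.427, the weakest agreement between probe sets of any member, and was not called. Its lineage difference was 0.33 (-0.27 to 0.93) early and -0.28 (-0.88 to 0.31) late.

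The kainate receptor genes each had a different course. Grik1, which encodes GluK1, was high in MGE cells at E14.5 and low elsewhere. Probe set 1439987_at read 8.12, 8.16 and 8.47 there and 6.21, 6.46 and 5.83 in MGE cells at E18.5. In CGE cells it read 5.15, 4.94 and 5.04 at E16.5 and 5.81, 4.83 and 5.75 at E18.5. No array outside MGE E14.5 reached the filter level, and no detection calls were used, so folds against these dim values can be understated. The early difference was 3.20 ± 0.24 (9.20-fold, adjusted p = 6.76e-06) and the second probe set, 1427676_a_at, gave 3.83 ± 0.27 (14.3-fold, adjusted p = 3.38e-06). Both probe sets fell in MGE cells between E14.5 and E18.5, by 2.08 and 2.11 on the log2 scale (adjusted p = 9.8e-05 and 0.000184), and neither was called in CGE cells (0.42 and 0.34). At E18.5 the lineages still did not overlap, as was so for 36.8% of all probe sets. At the lead probe set the lowest MGE array (5.83) was barely above the highest CGE array (5.81), both below the filter level. The late difference was 0.71 ± 0.24 and missed the threshold at the lead probe set (adjusted p = 0.0569), and was 1.38 ± 0.27 and passed at the other (adjusted p = 0.00304). The lead probe set passed without MGE E18.5 replicate 3 (0.88), without CGE E18.5 replicate 1 (0.88) and without CGE E18.5 replicate 3 (0.85). The change of the lineage difference was -2.50 ± 0.34 (adjusted p = 0.000718) and -2.45 ± 0.38 (adjusted p = 0.00165). By level, MGE E14.5 stood above MGE E18.5 by a called step, and the steps from there to CGE E18.5 and on to CGE E16.5 were not called. Over the same days and arrays the precursor markers rose and the GABAergic genes fell, and their part in the Grik1 result was not tested.

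Grik2 encodes GluK2, the most widely expressed kainate subunit. Probe set 1425790_a_at read 10.27, 10.07 and 10.18 in MGE cells at E14.5 and 10.31, 10.48 and 10.16 at E18.5. In CGE cells it read 8.50, 8.80 and 9.04 at E16.5 and 8.60, 9.24 and 9.38 at E18.5. Every MGE array was above every CGE array on both occasions. The difference was 1.40 ± 0.20 (2.63-fold, adjusted p = 0.000791) early and 1.25 ± 0.20 (2.38-fold, adjusted p = 0.000872) late, and the second probe set, 1457683_at, gave 1.36 ± 0.18 and 1.32 ± 0.18. Between days Grik2 was not called in either lineage, at 0.14 (-0.30 to 0.58) in MGE and 0.29 (-0.15 to 0.73) in CGE cells. The order of levels was MGE E18.5, MGE E14.5, CGE E18.5 and CGE E16.5, with a called step only between the lineages (1.11 ± 0.20).

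Grik3, which encodes GluK3, had called differences between days at its lead probe set and none called between lineages. Probe set 1440177_at read 10.12, 10.08 and 10.17 in MGE cells at E14.5 and 10.02, 9.83 and 10.19 in CGE cells at E16.5. At E18.5 it read 9.35, 9.58 and 9.35 in MGE and 9.38, 9.35 and 9.48 in CGE cells. All 6 arrays of the earlier days were above all 6 arrays of E18.5. It fell by 0.69 ± 0.12 (1.62-fold, adjusted p = 0.00184) in MGE and by 0.61 ± 0.12 (1.53-fold, adjusted p = 0.0115) in CGE cells, and the call in CGE cells was lost without CGE E16.5 replicate 3 (-0.52). The lineage difference was 0.11 (-0.16 to 0.37) early and 0.02 (-0.24 to 0.29) late, so that at this probe set the intervals stay below 0.4 log2 units. The second probe set, 1427709_at, fell by 0.65 and 0.70 without passing the test (adjusted p = 0.0643 and 0.0686). Its lineage difference was -0.11 (-0.60 to 0.37) early and -0.06 (-0.55 to 0.43) late. Because lineage and day differ together in the early comparison, it cannot show that the lineages were equal. In order of level, MGE E14.5 and CGE E16.5 did not differ by a called amount, nor did MGE E18.5 and CGE E18.5, and the step between these pairs was called (MGE E18.5 minus CGE E16.5, -0.59 ± 0.12).

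**Figure D3:**
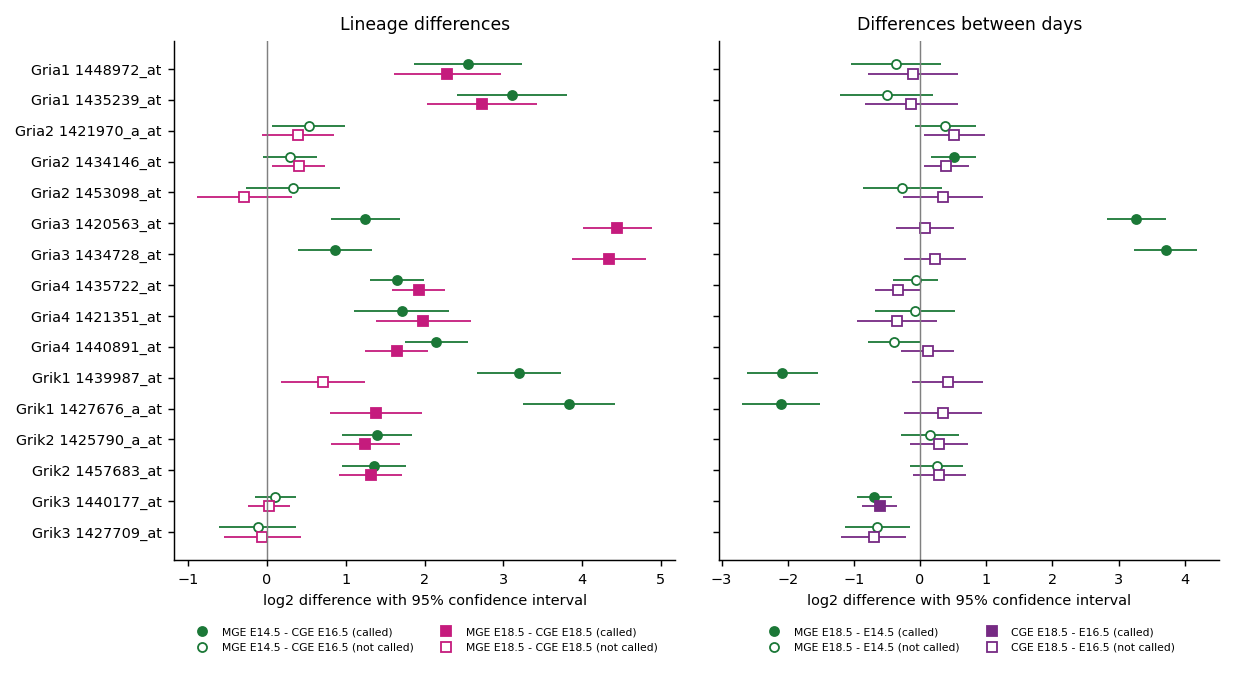
Log2 difference (x axis) of each of the 16 probe sets (y axis) with its 95% confidence interval, for the early and late lineage comparisons on the left and for MGE and CGE maturation on the right; filled symbols passed an adjusted p of 0.05. No member was called lower in MGE than in CGE cells, and the Gria3, Grik1 and Grik3 probe sets account for 6 of the 7 calls between days.

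Over the maturation comparisons as a whole, 3 of 16 probe sets rose and 3 fell in MGE cells, where 10.3% of all tested probe sets rose and 9.18% fell (19.4% in all). In CGE cells 0 rose and 1 fell, against 3.87% and 6.32% (10.2% in all). At an unadjusted p under 0.05, 2 rose and 2 fell in CGE cells. The change of the lineage difference was called for 4 members, the 2 of Gria3 upwards and the 2 of Grik1 downwards, against 6.65% and 2.6% of all probe sets (9.25% together). Medians over the 16 were -0.17, 0.17 and -0.11 in these 3 comparisons, beside -0.07, -0.07 and 0.02 over all probe sets. Arrays of the compared days did not overlap for 10 members in MGE and 3 in CGE cells, against 46.2% and 25.7% of all. The lineage comparisons share arrays with the maturation comparisons, so these counts are not independent of one another.

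**Figure D4:**
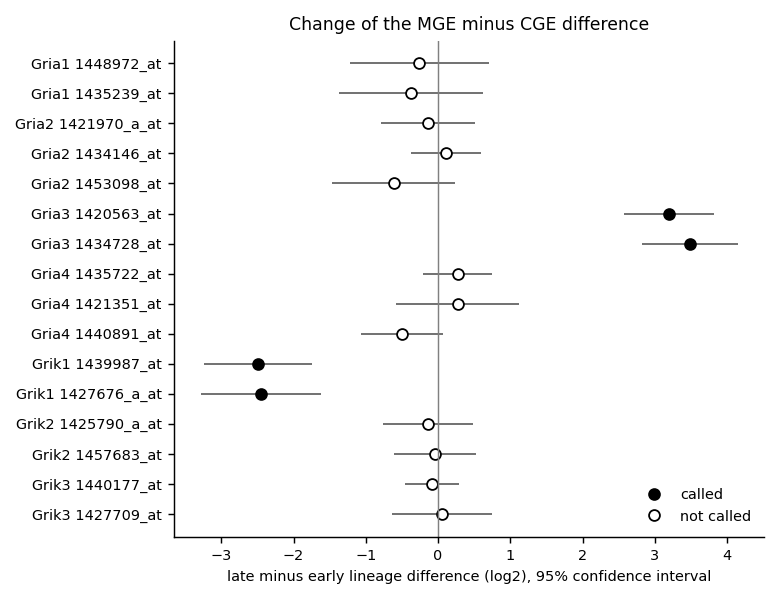
Change of the MGE minus CGE difference (x axis, late minus early difference on the log2 scale, with its 95% confidence interval) for each of the 16 probe sets (y axis); filled symbols passed an adjusted p of 0.05. The 2 Gria3 probe sets lie at 3.20 and 3.48, the 2 Grik1 probe sets at -2.50 and -2.45, and the intervals of the other 12 include 0.

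Across the 12 arrays, the lead probe sets of Gria1 and Gria4 had the highest correlation among members (r = 0.975), followed by Gria4 with Grik2 (0.916) and Gria1 with Grik2 (0.912). The lowest was that of Gria2 with Grik3 (-0.575). These values describe 12 arrays in 4 groups and largely reflect the differences between groups. By the same measure the genes most like Gria1 were Cux2 (0.996), Thbs1 (0.995) and Lhx6 (0.992), and those most like Gria4 were Nxph1 (0.990), Maf (0.986) and Ptprd (0.984). Grik1 was nearest to Rai2 (0.967), Ptchd4 (0.935) and Ddx25 (0.935), and Grik2 to Cacna2d2 (0.961), Plxdc2 (0.959) and Pde4dip (0.955). Gria2 was nearest to 1810014B01Rik (0.933), Dusp6 (0.920) and Son (0.877), and Grik3 to Ldah (0.960), Sbk1 (0.959) and Ywhag (0.957). Lhx6, Maf and Nxph1 are on the MGE interneuron list.

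AMPA receptors reach the synapse with auxiliary subunits that set their gating and traffic. Of 21 listed auxiliary genes, 14 were tested. In the late comparison 6 were higher in MGE cells and 0 lower (median 0.60), where 13% of all probe sets were higher and 9.66% lower. In the early comparison 1 was higher and 0 lower (median 0.10), where 4.17% of all were higher and 5.48% lower, so that 1 of 14 is near the share of all. Shisa6, whose product slows AMPA receptor desensitisation, read 9.11, 9.12 and 9.34 in MGE cells at E18.5 and between 4.91 and 6.61 on the 9 other arrays. It passed the filter on low values through the MGE arrays at E18.5 alone, so the filter required a high value there. Its late difference was 3.35 ± 0.36, its rise in MGE cells 3.02 ± 0.36 and its change of the lineage difference 3.17 ± 0.51, each called. The precursor markers were high on the same 3 arrays (13 of 14 higher in the late comparison, median 4.15), and their part in the values of Shisa6 and the other auxiliary genes was not tested. Cacng3, which encodes the stargazin relative TARP γ-3, was called in both lineage comparisons, as Gria1 was, with 2.55 ± 0.36 early and 2.15 ± 0.36 late. Olfm2 (2.26 ± 0.32) and Frrs1l (1.76 ± 0.21), which encodes a factor for AMPA receptor assembly, were higher in MGE cells at E18.5. Their means moved more in CGE than in MGE cells between days. Olfm2 went from 8.21 to 6.82 in CGE and from 8.81 to 9.08 in MGE cells. Frrs1l went from 8.71 to 7.98 in CGE and from 9.40 to 9.74 in MGE cells. For the change of the lineage difference, 5 auxiliary genes were higher and 0 lower, where 6.65% of all probe sets were higher and 2.6% lower. Of these 5 genes, Shisa6 kept its call in every alternative setting that tested it, whereas those of Olfm2, Frrs1l, Cacng4 and Shisa7 were each lost in 9 to 13 of the alternatives. In MGE cells 2 auxiliary genes rose and 1 fell between days, near the shares of all probe sets (10.3% and 9.18%). In CGE cells 0 rose and 3 fell (0 and 8 at an unadjusted p under 0.05, and 3.87% and 6.32% of all probe sets called), among the 3 Cacng2, which encodes stargazin (-1.08 ± 0.21).

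Of 5 listed partners of kainate receptors, 4 were tested. In the early comparison 1 was higher and 0 lower (median 0.22), where 4.17% of all probe sets were higher and 5.48% lower. In the late comparison 2, Neto1 and C1ql3, were higher and 0 lower (median 0.94), where 13% of all were higher and 9.66% lower. Between days 1 rose and 1 fell in MGE cells (10.3% and 9.18% of all), and 0 rose and 1 fell in CGE cells (3.87% and 6.32%). Neto1, an auxiliary subunit of kainate receptors, read 11.97 to 12.27 in MGE cells at E14.5 and 11.28 to 11.30 at E18.5, against 9.17 to 9.81 and 8.57 to 10.09 in CGE cells. Its difference was 2.51 ± 0.33 early and 1.75 ± 0.33 late, on the same side as Grik1 and Grik2. C1ql3, a secreted C1q-like protein gene, read 8.31, 7.88 and 8.55 in MGE cells at E18.5 and 4.07 to 4.39 on all other arrays. It passed the filter on low values through those MGE arrays alone. It rose by 3.95 ± 0.15 in MGE cells, and its change of the lineage difference was 3.92 ± 0.22, on the arrays on which the precursor markers were high.

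Genes for the proteins that cluster AMPA receptors and organise synapses were mostly higher in late MGE cells. Of 12 listed, 10 were tested, of which 7 were higher and 0 lower in MGE cells at E18.5 (median 1.19), where 13% of all probe sets were higher and 9.66% lower. Nlgn1 and Lrrtm3 passed the filter on low values through the MGE arrays at E18.5 alone, and Lrrtm1 and Gpc6 through MGE arrays alone. For these the filter required a high value on the side that was higher, which partly fixed the counts and medians. In MGE cells 6 rose and 0 fell between days (median 0.87), where 10.3% of all rose and 9.18% fell. In the early comparison 0 were higher and 1 was lower (median -0.11), where 4.17% of all were higher and 5.48% lower. In CGE cells limma called 0 between days (median -0.45), where 3.87% of all rose and 6.32% fell, with 1 up and 3 down at an unadjusted p under 0.05. Nlgn1, the neuroligin of excitatory synapses, read 7.88, 7.96 and 8.57 in MGE cells at E18.5 and 5.26 to 6.33 on the others, with a late difference of 2.60 ± 0.23 and a change of the lineage difference of 3.07 ± 0.33. Lrrtm3, a leucine-rich repeat adhesion gene, gave 1.95 ± 0.21 and 2.52 ± 0.29, and Nlgn3 gave 1.59 ± 0.19 and 1.42 ± 0.27. Gpc6, which encodes a glypican, was higher at E18.5 by 2.30 ± 0.27, and its call for the change (1.49 ± 0.38) was lost in 8 alternatives. The 13 precursor markers counted above rose on the same 3 arrays, and their part in these values was not tested.

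Intracellular scaffold and trafficking genes had calls in both directions between lineages, and more of them fell than rose between days. Of 15 listed, 13 were tested, with 2 higher and 3 lower in the early comparison, 3 higher and 1 lower in the late comparison and 0 called by limma for the change (median differences 0.11, 0.03 and 0.16). Of all probe sets, 4.17% were higher and 5.48% lower early, 13% and 9.66% late, and 6.65% and 2.6% for the change. The 1 of 13 lower in the late comparison is near the share of all. For the change, 2 of the 13 were higher and 2 lower at an unadjusted p under 0.05. Between days, 1 rose and 4 fell in MGE cells and 1 rose and 3 fell in CGE cells (median -0.28 in each). Of all probe sets, 10.3% rose and 9.18% fell in MGE cells and 3.87% rose and 6.32% fell in CGE cells. The 1 of 13 that rose in MGE cells is near the share of all. Epb41l2, a membrane skeleton gene, was 1.36 ± 0.23 higher in MGE cells at E18.5. Grip1, whose product binds the GluA2 and GluA3 tails, fell in both lineages, by 0.65 ± 0.15 in MGE and 0.81 ± 0.15 in CGE cells, and was chosen for mention after its values were seen. Its mean was lower in MGE than in CGE cells both early (11.01 against 11.60) and late (10.37 against 10.79). Of the 3 RNA editing genes, Adarb2 was lower in MGE cells by 5.01 ± 0.21 early and by 4.51 ± 0.21 late, and it is also on the CGE interneuron list. Adar and Adarb1, which encode the active editing enzymes, were not called between lineages. Grid1, the delta receptor gene that was tested of 3 listed, was 2.46 ± 0.59 higher in MGE cells at E18.5. It passed the filter on low values through MGE arrays alone, and Adarb2 through CGE arrays alone.

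**Figure D5:**
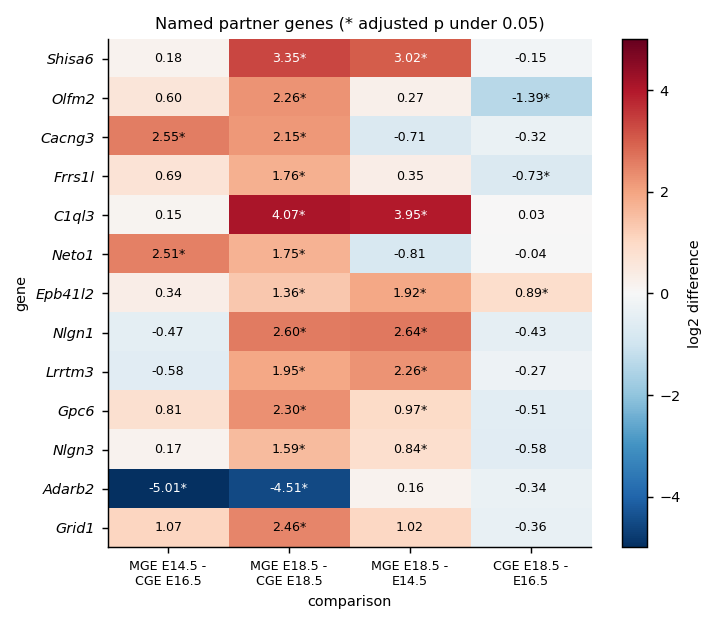
Log2 differences (colour and printed value) of the 13 named partner genes (y axis) in the early and late lineage comparisons and in MGE and CGE maturation (x axis); asterisks mark an adjusted p under 0.05. Cacng3, Neto1 and Adarb2 were called in both lineage comparisons, whereas Shisa6, C1ql3, Nlgn1 and Lrrtm3 were called at E18.5 and in MGE maturation.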

How the data were processed

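Values were those deposited by the authors on a log2 scale. According to the methods they were background-corrected and normalised with Bioconductor, while the submitters' processing notes list MAS5, so the algorithm is not settled. No pseudocount was added, no detection calls were used, and a dim value cannot be told from an absent transcript. Arrays have no read depth, and 3 arrays per group limit the precision. The NuGEN Ovation Pico kit had amplified the cDNA. The table held 27094 probe sets, a selection whose basis was not stated. Of them 22339 had 1 symbol in the platform annotation, 571 had several, 4150 had none and 34 were controls.

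Probe sets with 1 symbol were kept above the 40th percentile of their own array on at least 3 of 12 arrays (16008 probe sets of 8795 genes). The model was a mean for each group, fitted by limma 3.58.1 (R 4.3.3) to all arrays together and moderated with eBayes, on 8 residual and 3.66 prior degrees of freedom. Tests were two-sided, adjusted by the Benjamini-Hochberg method over all probe sets within a comparison, and called at an adjusted p under 0.05. An exact permutation test of 3 against 3 arrays cannot go below p = 0.1 and was not used. The script was tested on simulated data with known differences.

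The members and all gene lists were chosen with earlier results of these data known. The text names each member with every probe set. It names partner genes called in the late lineage comparison or in the change of the lineage difference with a difference of at least 1, at most 4 per list, and the 3 genes with the highest correlation to each member. Cacng2, Cacng4, Shisa7, Lrrtm1, Grip1, Adar and Adarb1 fall outside this rule and were named after their values were seen. Of the other marker lists, 2 pallial genes (0 called in any comparison), 2 microglial genes (2 higher in MGE and 2 in CGE maturation) and 1 vascular gene (higher in MGE maturation) were tested.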

Additional observations from a re-analysis of the deposited data

Results flagged for a closer look

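Of the 7 receptor genes, 2 had lineage effects that differed between the early and the late comparison by a test of the difference itself. For Gria3 the MGE minus CGE difference was larger at E18.5, by 3.20 at probe set 1420563_at and by 3.48 at probe set 1434728_at. For Grik1 it was smaller at E18.5, by -2.50 at probe set 1439987_at and by -2.45 at probe set 1427676_a_at. All 4 calls were kept in every alternative setting that tested them, with values of 2.98 to 3.35, 3.20 to 3.67, -2.81 to -2.32 and -2.67 to -2.17. The early comparison sets E14.5 against E16.5, so the lineage and the interval between days cannot be told apart in this change.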

How the results depend on the processing

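Among 80 differences of member probe sets, 32 were called, 29 of these kept the call in every alternative setting that tested them, of 21 in all, and none of the 32 changed direction. The exceptions were the early difference of Gria3 probe set 1434728_at (adjusted p 0.0012 to 0.118 over the alternatives), the rise of Gria2 probe set 1434146_at in MGE cells (0.0128 to 0.142) and the fall of Grik3 probe set 1440177_at in CGE cells (0.00661 to 0.0833). Of 48 uncalled differences, 7 gained a call in 1 or more settings, among them the late difference of Grik1 probe set 1439987_at (adjusted p 0.0336 to 0.177).

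Counts of member calls moved by construction with 1 probe set per gene (5 higher early, 4 higher late, 1 higher in MGE maturation, 1 higher and 1 lower for the change) and with the filter at the 60th percentile, which drops Grik1 (1 lower in MGE maturation, 0 lower for the change). In MGE maturation 6 were lower with array weights and 5 with only the 6 arrays compared. In CGE maturation 2 were lower with a trended, robust variance and 0 with only the 6 arrays compared. Leaving out 1 array gave 0 (without CGE E16.5 replicate 3) to 2 (without CGE E16.5 replicate 2) lower and 0 to 1 (without CGE E18.5 replicate 2) higher in CGE maturation. The cause was not tested.

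Uncalled differences near 0 changed sign. With quantile normalisation, Grik3 1440177_at late was -0.0174 and Gria3 1420563_at in CGE maturation -0.0256. With array weights, Grik3 1427709_at was 0.0343 early and -0.0984 for the change. Leaving out 1 array at a time, CGE maturation ran from -0.47 to 0.31 (Gria1 1435239_at), -0.43 to 0.22 (Gria1 1448972_at), -0.0108 to 0.59 (Gria2 1453098_at), -0.0517 to 0.164 (Gria3 1420563_at) and -0.035 to 0.283 (Gria4 1440891_at). The change ran from -0.59 to 0.0597 (Gria1 1448972_at), -0.298 to 0.0814 (Gria2 1421970_a_at), -0.033 to 0.20 (Gria2 1434146_at), -0.382 to 0.00905 (Grik2 1425790_a_at), -0.241 to 0.0952 (Grik2 1457683_at), -0.24 to 0.31 (Grik3 1427709_at) and -0.171 to 0.00745 (Grik3 1440177_at). The early difference ran from -0.0263 to 0.575 (Gria2 1453098_at) and -0.37 to 0.18 (Grik3 1427709_at), and the late from -0.163 to 0.00191 (Grik3 1427709_at) and -0.053 to 0.0635 (Grik3 1440177_at).

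Counts over all probe sets depended more on single arrays. The early count of 1544 was 3190 with array weights, 940 and 961 without MGE E14.5 replicate 1 or 2, and 946 with these 2 averaged. The MGE maturation count of 3111 was 6343 with array weights, 1962 and 2013 without the same replicates, 1858 without MGE E18.5 replicate 3 and 1958 with the pair averaged. The CGE maturation count of 1630 was 860 with array weights, 188 with only the 6 arrays compared, 554 without CGE E16.5 replicate 3 and 698 without CGE E18.5 replicate 2. The count for the change, 1480, was 953 without MGE E14.5 replicate 2. With 1 probe set per gene the 5 counts were 885, 2009, 1866, 955 and 760.

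The sample titles share replicate numbers across groups. Deviations from the group means of the 18 same-numbered pairs correlated at -0.13 to 0.27, 5 pairs above 0.1, and 4 of 12 arrays were closest to their own number, so the numbers were not taken to pair the arrays. With the replicate number as a block, member calls were 11 higher early, 10 higher late, 2 higher and 3 lower in MGE maturation, 1 lower in CGE maturation, and 2 higher and 2 lower for the change. The call lost was that of Gria2 1434146_at (adjusted p = 0.058), and all probe sets called were 1506, 3575, 2996, 1616 and 1572.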
